A study of Canis lupus familiaris with 10 samples.

Results

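The chemokine receptor CXCR3 and its ligands CXCL10 and CXCL11 were followed through early and late stages of cutaneous histiocytoma of the dog (CCH), a Langerhans cell-derived skin tumour that is benign and mostly regresses by itself. They were selected by name as the receptor and the chemokines that interferon gamma (IFN-γ) induces, and 3 of the 4 genes in that selection, out of 800 genes on the nCounter Canine IO Panel, were measured here. CXCL9, the remaining ligand, was not analysed here. All 3 genes had a mean of at least 20 normalized counts and were tested with 761 genes of the panel.

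RNA came from formalin-fixed, paraffin-embedded tumours of 10 dogs, each tumour from a different animal. The 5 early CCH were graded as group 1 in the Cockerell and Slauson scheme. These dogs were 0.5 to 5 years old where an age was given (1 age not stated), 3 were male and 1 was female (1 sex not stated), and 2 were neutered. The 5 late CCH were graded as group 3, the lymphocyte-enriched stage, and came from dogs of 1.5 to 9 years, 4 male and 1 female, of which 1 was neutered. Whole tumour tissue was measured, so that fewer cells of a type and less RNA per cell cannot be told apart.

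CXCR3 is a G protein-coupled receptor of activated T cells, mainly of T helper type 1 and cytotoxic T cells, and of natural killer cells. CXCL10 and CXCL11 are secreted by macrophages, dendritic cells, endothelium, keratinocytes and other cells that respond to IFN-γ through JAK kinase signalling, and they attract cells that carry the receptor. T cells and natural killer cells themselves are the main sources of IFN-γ, so that ligand, receptor and T cell RNA often appear together in inflamed skin. In the dog reference annotation, CXCL10 and CXCL11 are immediate neighbours on one chromosome.

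Barcode counts per sample, recovered from the deposited values, ranged from 484696 to 823763 in early CCH and from 945399 to 1253079 in late CCH, with no overlap. The share of RNA fragments over 200 nucleotides (DV200) was 64.5 to 71.2% in early and 71.2 to 75.8% in late CCH. Background, taken as the mean of the negative control probes plus 2 SD, was 21.8 to 38.2 normalized counts in early and 19.2 to 26.9 in late CCH. All early samples were run on 1 cartridge and all late samples on another, so that cartridge and stage cannot be told apart. No extraction batch held tumours of both stages, so the same is true of extraction batch. The ratio between a pair of positive control probes was 2.09 to 2.17 in early and 2.72 to 2.84 in late CCH, with no overlap. The part of this run difference, depth and RNA quality in the stage differences was not tested beyond the fit with DV200 given beside the receptor. Of the Langerhans and dendritic cell markers, CD207 (langerin) exceeded background in only 2 of the 10 samples and CD1C in 5 of them, whereas FLT3, a growth factor receptor of dendritic cells, ranged from 271 to 3117 normalized counts.

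CXCR3 was higher in late CCH. The receptor read 64.5, 114, 138, 145 and 54.95 normalized counts in early 1 to early 5. In late 1 to late 5 it read 680, 488, 266, 566 and 455 normalized counts. Every late tumour lay above every early tumour, and the lowest late value was 1.83 times the highest early value. The means were 103 ± 41.4 (SD, n = 5) across early tumours and 491 ± 153 (SD, n = 5) in late CCH. Early values stood at 1.55 to 4.24 times background and late values at 12.2 to 33.2 times background. The weakest early value rested on 29 barcode counts, with an exact Poisson 95% interval of 19.4 to 41.6, and the lowest late value on 246 counts. This interval covers counting error only.

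In CCH early versus late, the log2 fold change of CXCR3 was -2.28 (SE 0.35, 95% confidence interval -3.05 to -1.51). Negative values mean higher in late CCH throughout. The limma test gave an adjusted p of 0.00167 after Benjamini-Hochberg (BH) and 0.0120 after Benjamini-Yekutieli (BY) correction over the 761 genes. A call required a difference of 2-fold or more together with a BY adjusted p no higher than 0.05. Of the 3 genes, CXCR3 alone was called, beside a background of 9.2% of all tested genes called higher in late CCH and 11.2% called in either direction. With BY adjustment and the same 2-fold threshold, the study itself reported no differentially expressed gene by nCounter between these stages. It tested with the nSolver Advanced Analysis software and not with limma. The median log2 fold change over all tested genes was -0.18, and it moved to 0.21 when samples were scaled to the geometric mean of all genes, under which CXCR3 stood at -1.89. With DV200 as a covariate the log2 fold change was -2.04 and the limma BY adjusted p was 0.389. That fit used the DV200 values of the sample labels, and for late 5 the study's RNA quality table gives another value. As a share of all panel counts, CXCR3 rose from 0.0103% ± 0.00336 to 0.0417% ± 0.0130 (SD, n = 5 each; exact two-sided permutation p = 0.00794, the smallest that 5 against 5 samples allow).

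**Figure D1:**
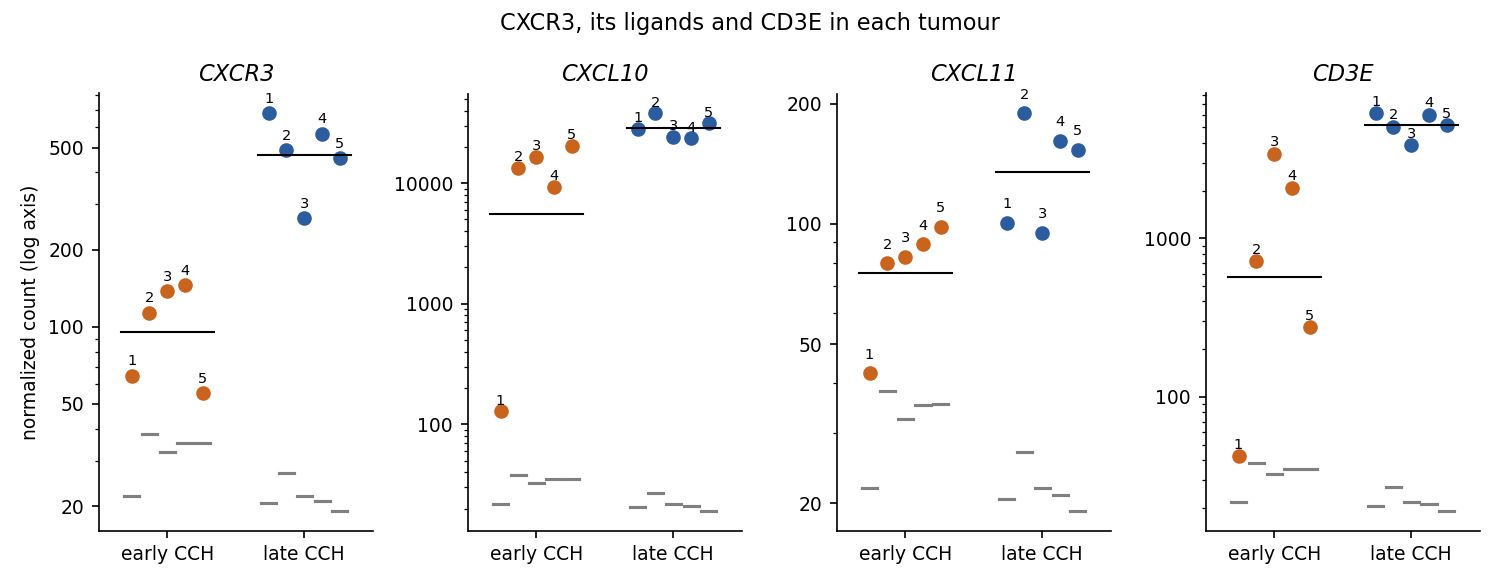
Normalized counts of CXCR3, CXCL10, CXCL11 and the T cell gene CD3E in each of the 5 early and 5 late CCH samples, on log axes; numbered points are samples, black bars are means of the log2 values, and short grey bars mark each sample's background. All late samples lie above all early samples for CXCR3 and CXCL10, early 1 stands at 128 normalized counts for CXCL10, and the stages overlap for CXCL11.

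CXCL10 was read far above background in both stages, with 1 early tumour well below the rest. It read 128, 13466, 16465, 9287 and 20500 normalized counts in early 1 to early 5. In late 1 to late 5 it read 28370, 37876, 24188, 23624 and 31377 normalized counts. The stages did not overlap, but the lowest late tumour exceeded the highest early tumour by a factor of only 1.15. The panel-wide background for this pattern, all late above all early, was 19.2% of tested genes, and 2 of the 3 genes (CXCR3 and CXCL10) had it. Early 1 lay far below all other samples, and the next lowest tumour, early 4, was 72.6 times higher.

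The means of CXCL10 were 11969 ± 7788 (SD, n = 5) across early tumours and 29087 ± 5849 (SD, n = 5) in late CCH. The log2 fold change was -2.36 (SE 1.22, 95% confidence interval -5.06 to 0.34), and the limma adjusted p was 0.156 by BH and 1 by BY. An exact two-sided permutation test of this gene alone gave p = 0.00794. Without early 1 the early mean was 14930 ± 4739 (SD, n = 4), the late mean was 1.95 times higher, and the log2 fold change was -0.998 (SE 0.25; limma adjusted p 0.0154 by BH and 0.111 by BY). CXCL10 therefore was not called with or without early 1, and its estimated difference depended on that tumour. As a share of all panel counts, CXCL10 took 0.0147% in early 1, 0.840 to 2.23% in the other early tumours and 2.03 to 3.13% in late CCH. On this scale early 5 exceeded both late 3 and late 4.

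CXCL11 was read close to background in early CCH and somewhat above it in late CCH. It stood at 42.3, 79.7, 82.6, 89.0 and 98.5 normalized counts in early 1 to early 5. In late 1 to late 5 it stood at 100.5, 189, 94.99, 162 and 153 normalized counts. The stages overlapped, since early 5 was above late 3, and early 1 was again the lowest. Early values were 1.94 to 2.79 times background and late values 4.35 to 8.005 times background. The means were 78.4 ± 21.4 (SD, n = 5) and 139.9 ± 40.8 (SD, n = 5).

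The log2 fold change of CXCL11 was -0.83 (SE 0.29, 95% confidence interval -1.47 to -0.19), with a limma adjusted p of 0.0460 by BH and 0.332 by BY. By BH alone, 27.3% of tested genes were higher in late CCH and 35.7% differed in either direction. Without early 1 the log2 fold change was -0.62 and the BH adjusted p was 0.0786. The BH adjusted p exceeded 0.05 in 8 of the 10 limma fits that left out 1 sample (0.0330 to 0.104 over the 10), with TMM scaling (0.0960) and with DV200 as a covariate (0.155). When samples were scaled to the geometric mean of all genes it was -0.44 (limma BH adjusted p 0.169).

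The CXCL10 level of early 1 was set against the rest of that tumour's profile, a comparison chosen after its values were seen. Relative to the mean log2 value of the other 4 early tumours, CXCL10 was the lowest of all 761 genes in early 1, at -6.80. CCL5, a T cell chemokine, followed at -4.66, and CD3E, a chain of the T cell receptor complex, at -4.65. The list went on with CD3D, another chain of that complex, at -4.41, a panel gene named IFGGC1 at -4.19, the cytotoxic T cell co-receptor CD8A at -4.11 and the IFN-γ-induced enzyme IDO1 at -3.99. The median over all tested genes was -0.31. CXCR3 at -0.70 and CXCL11 at -1.03 in early 1 were nearer to that median than CXCL10. However, they averaged only 113 and 87.5 normalized counts in the other 4 early tumours, against 14930 for CXCL10. With background at 21.8 in early 1, both had far less room to fall, so these deviations are not comparable in size. IFNG itself stood at 20.1 normalized counts in early 1, or 0.922 times background. Other genes were higher in early 1 than in the other early tumours, led by the calprotectin subunit S100A8 (3.103), its relative S100A12 (2.97) and the basal keratinocyte keratin KRT14 (2.72), which stood at 5239 normalized counts in early 1 and was highest there among all samples. Recovered counts were highest among the early samples in early 1, at 823763. The part of these differences in the low CXCL10 of early 1 was not tested.

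**Figure D2:**
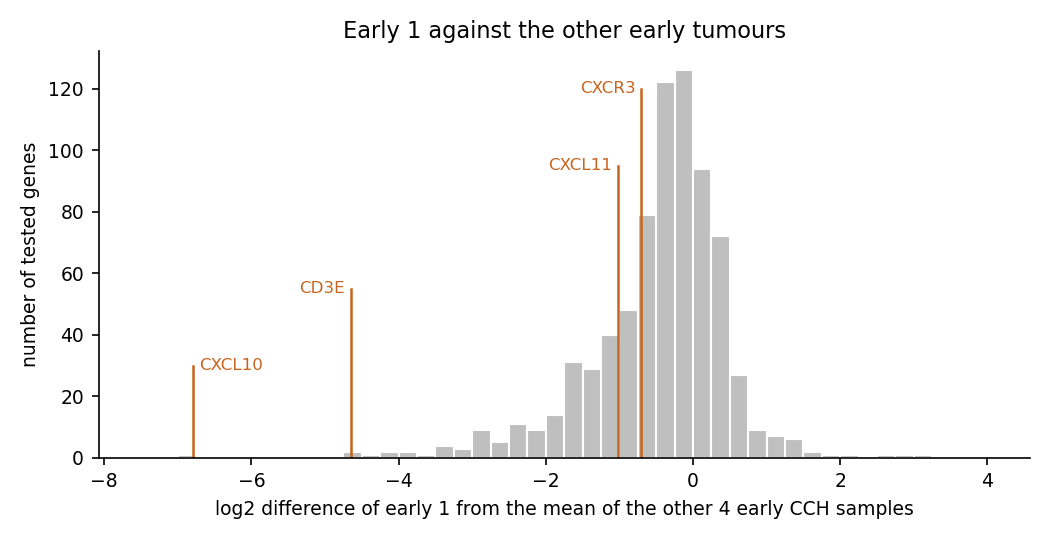
Histogram of the log2 difference between early 1 and the mean of the other 4 early CCH samples, in log2 normalized counts (horizontal axis), over 761 tested genes (vertical axis, number of genes); vertical lines mark the named genes, and their heights carry no value. CXCL10 lies at the far left at -6.80 and CD3E at -4.65, whereas CXCR3 and CXCL11 lie within the main body of genes. The last 2 genes stood much nearer to background in the other early tumours and had less room to fall.

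The relation to T cells was examined with CD3E. CD3E read 42.3, 716, 3402, 2090 and 275 normalized counts in early 1 to early 5. It read 6134, 5024, 3853, 6011 and 5160 normalized counts in late 1 to late 5. All late tumours were above all early tumours, and early tumours spread far more widely than late tumours (log2 fold change -3.18, limma adjusted p 0.0318 by BH and 0.229 by BY). Early 5 combined the highest early CXCL10 level with the second lowest CD3E level.

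Over all 10 samples, log2 CXCR3 correlated with log2 CD3E at Pearson r = 0.855 (permutation p = 7.0e-05, BH adjusted p 0.00116 over 760 genes) and Spearman rho = 0.964 (permutation p = 5.0e-05, BH adjusted p 0.00190). Without early 1 and early 5, the samples farthest from the CD3E median, r was 0.845 (exact permutation p = 0.000174, n = 8). For CXCL10, r was 0.835 (permutation p = 0.0106, BH adjusted p 0.0473) and rho was 0.770 (permutation p = 0.0124, BH adjusted p 0.0467), and r was 0.731 without those samples (exact permutation p = 0.0333, n = 8). Without early 1 alone, the r of CXCL10 was 0.477 (permutation test, BH adjusted p 0.338), and the threshold was missed in 7 of the 10 sets that left out 1 sample. For CXCL11, r was 0.778 (permutation p = 0.00706, BH adjusted p 0.0354) and rho was 0.758 (permutation p = 0.0148, BH adjusted p 0.0522), and r was 0.639 without those samples (exact permutation p = 0.0688, n = 8). Without early 1 alone, the r of CXCL11 was 0.507 (permutation test, BH adjusted p 0.286), and the threshold was missed in 5 of the 10 sets. Taken over the genes correlated with each of the 3 instead of CD3E, the BH adjusted p of r was 0.00175 for CXCR3, 0.0672 for CXCL10 and 0.0761 for CXCL11. The BH threshold for Pearson r was passed by 20.4% of the 760 genes in the positive direction, and the median r was 0.260. CXCR3 ranked 87, CXCL10 106 and CXCL11 136 of 760 by this r.

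Both stages differ in CD3E, so the relations were also computed within stages. The r of deviations from the stage means was 0.728 for CXCR3, 0.774 for CXCL10 and 0.552 for CXCL11, against a median of 0.217 over all genes. In a limma fit with stage and log2 CD3E, CXCL10 had a slope of 0.95 log2 units per log2 unit of CD3E (SE 0.25, BH adjusted p 0.0457), where 9.08% of 760 genes had a positive slope past this threshold. Without early 1 this slope was -0.15 (BH adjusted p 0.653), and the threshold was missed in 9 of the 10 fits that left out 1 sample (only the fit without early 5 passed, at 0.00196). The slope of CXCR3 was 0.23 (SE 0.082, BH adjusted p 0.130) and that of CXCL11 was 0.14 (SE 0.081, BH adjusted p 0.429).

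In the same fit, with CD3E as a term, the stage difference of CXCR3 was -1.53 log2 units (SE 0.37, 95% confidence interval -2.36 to -0.71, limma BH adjusted p 0.0404). The background was 4.87% of 760 genes higher in late CCH at this threshold. The BH adjusted p exceeded the threshold in 7 of the 10 fits that left out 1 sample, among them 0.118 without early 1 (-1.21 log2 units) and 0.201 without early 3 (-1.45 log2 units). For CXCL10 the stage difference was 0.65 (BH adjusted p 0.741), and without early 1 it turned to -1.33 (BH adjusted p 0.0824). For CXCL11 it was -0.38 (BH adjusted p 0.522). No early tumour reached the CD3E level of any late tumour (highest early 3402, lowest late 3853 normalized counts). These stage differences therefore extend the fitted slope to levels that the stages did not share. They do not compare tumours of equal CD3E.

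**Figure D3:**
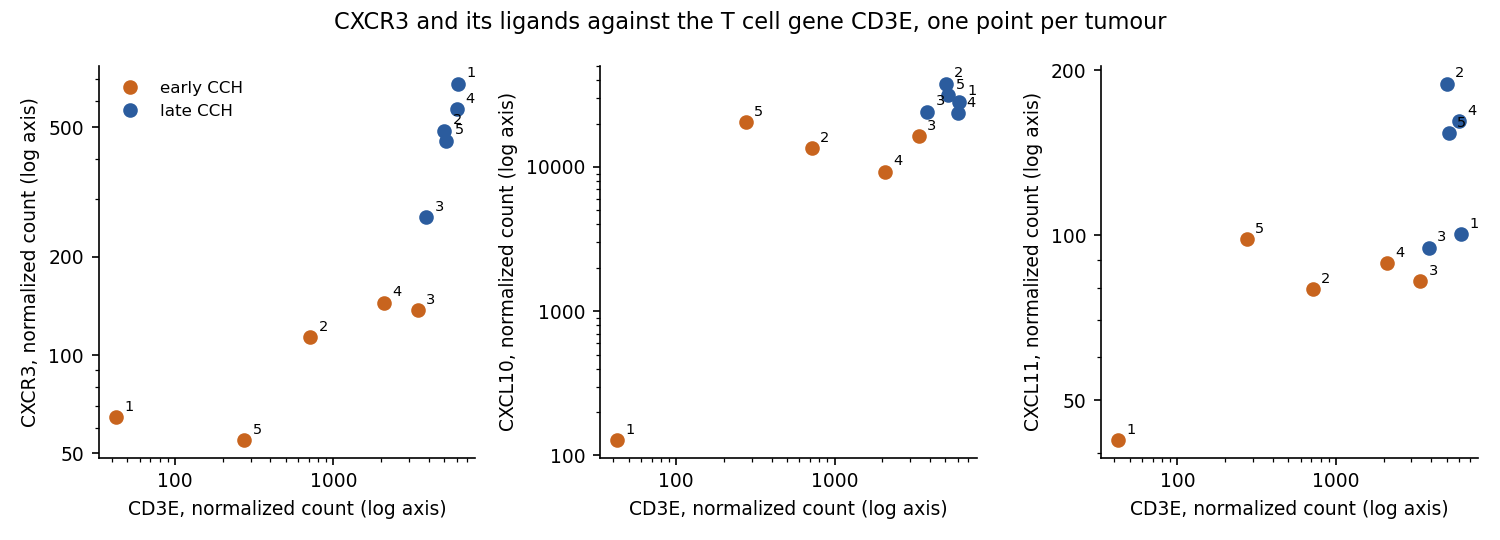
Normalized counts of CXCR3, CXCL10 and CXCL11 (vertical log axes) against normalized counts of CD3E (horizontal log axis), 1 numbered point per sample, early CCH in orange and late CCH in blue. Early samples spread along the CD3E axis, late samples form a compact group at the right, and early 1 lies apart at the lower left in the CXCL10 panel.

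Relative to CD3E, the log2 ratio of CXCR3 was -2.56 ± 1.99 (SD, n = 5) across early tumours and -3.46 ± 0.25 (SD, n = 5) in late CCH. The difference of 0.90 was smaller than the spread of the early samples (exact two-sided permutation p = 0.429). Early ratios ran from -4.62 in early 3 to 0.60 in early 1, and the late ratios fell inside this range. Without early 1, where CD3E was only 1.94 times background, the difference was 0.11, and without early 3 it was 1.41. For CXCL10 the difference was 0.82 (exact two-sided permutation p = 0.437), with the highest ratio, 6.22, in early 5, and it was 0.088 without that tumour and 1.25 without early 1. For CXCL11 the ratio was -2.90 ± 2.19 (SD, n = 5) across early tumours and -5.25 ± 0.44 (SD, n = 5) in late CCH, a difference of 2.35 (exact two-sided permutation p = 0.0476). These 3 p-values are unadjusted, and 67.8% of 760 genes were higher relative to CD3E in early CCH at an exact permutation p of at most 0.05. The CXCL11 result is of that common kind, and its p exceeded 0.05 in 6 of the 10 sets that left out 1 sample.

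Receptor and ligands were also set against each other, as ratios of one probe to another that carry no absolute meaning. CXCR3 stood at 55.8 to 167 normalized counts per 100 of CXCL11 in early CCH and at 258 to 677 in late CCH. This ratio did not overlap between stages, but CXCL11 stood at only 1.94 to 2.79 times background in early CCH. How far that compressed the stage difference of CXCL11 was not tested. CXCR3 per 100 normalized counts of CXCL10 was 0.268 to 1.56 in the early tumours other than early 1, 50.4 in early 1 and 1.10 to 2.40 in late CCH. The early and late ranges of this ratio overlapped.

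CXCL10 and CXCL11 correlated over the 10 samples at r = 0.816 (permutation p = 0.00049, BH adjusted p 0.0318 over 760 genes correlated with CXCL10) and rho = 0.867 (permutation p = 0.00246, BH adjusted p 0.0714). Without early 1 and early 4, the samples farthest from the CXCL10 median, r was 0.807 (exact permutation p = 0.0166, n = 8), and the r of deviations from stage means was 0.746. The Pearson threshold was passed by 8.16% of genes in the positive direction. Taken over the 760 genes correlated with CXCL11, of which 0.132% passed, the BH adjusted p of the same r was 0.0608, and without early 1 and late 2 it was 0.634 (exact permutation p = 0.0854, n = 8). CXCR3 correlated with CXCL10 at r = 0.586 (permutation p = 0.0185, BH adjusted p 0.0536, or 0.0935 over the genes correlated with CXCL10) and rho = 0.709 (permutation p = 0.0260, BH adjusted p 0.0791), and r was 0.760 without early 5 and late 1 (exact permutation p = 0.00164, n = 8). With CXCL11, CXCR3 had r = 0.741 (permutation p = 0.0122, BH adjusted p 0.0416) and rho = 0.733 (permutation p = 0.01998, BH adjusted p 0.0651), and r was 0.961 without those samples (exact permutation p = 0.000223, n = 8). Taken from the side of CXCL11, the BH adjusted p of this r was 0.0871, and without early 1 and late 2, the samples farthest from the CXCL11 median, r was 0.641 (exact permutation p = 0.0992, n = 8). Within stages these receptor to ligand values were 0.325 and 0.314, and 24.7% of genes passed with CXCR3 in the positive direction.

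The genes most like each of the 3 over the 10 samples were named by Pearson r of log2 values, as a description. For CXCR3 they were FLT3LG, the ligand of FLT3 (r = 0.985), KLRK1, the activating receptor NKG2D (0.983), CXCL16, the ligand of the chemokine receptor CXCR6 (0.979), the T cell kinase FYN (0.9752) and PLCG1, a phospholipase of T cell receptor signalling (0.973). All 5 were called higher in late CCH, where 9.2% of all tested genes were, but they were chosen for likeness to a called gene over samples of both stages, so nothing is read from that count. For CXCL10 they were IFGGC1 (0.950), the cytokine LTA (0.943), ACOD1, the itaconate-forming enzyme of activated myeloid cells (0.911), TNFSF4, the ligand of OX40 (0.906), and the signalling adaptor TRAF3 (0.906). None of these 5 was called. LTA exceeded background in only 6 of 10 samples, and TNFSF4 in no early sample. For CXCL11 they were MEFV, which encodes pyrin (0.937), TNFRSF4, the receptor OX40 (0.876), TNFSF4 (0.874), the aminopeptidase LAP3 (0.872) and the transcription factor PRDM1 (0.866), and none was called. MEFV exceeded background in only 7 of 10 samples and in 2 of the 5 early ones. Early 1 was the lowest of all samples for each of the 5 genes named for CXCL10 and the 5 named for CXCL11, as for these ligands themselves. These samples share their cartridge within a stage, and the r values include the stage difference and the low values of early 1.

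IFNG, the inducer of the ligands, was read near background in several early tumours. It read 20.1, 84.8, 134, 46.1 and 43.6 normalized counts in early 1 to early 5, and 161, 273, 56.1, 132 and 483 in late 1 to late 5. The stages overlapped, with early 3 above late 3 and late 4. The log2 fold change was -1.66 (SE 0.62; limma adjusted p 0.0599 by BH and 0.432 by BY). Over all samples IFNG correlated with CXCL11 at r = 0.802, with CXCR3 at r = 0.769 and with CXCL10 at r = 0.699, with permutation p values of 0.00627, 0.00979 and 0.00591 and Spearman rho of 0.648, 0.721 and 0.794. None passed BH adjustment over the 760 genes correlated with IFNG (0.0739 to 0.0783 for r, 0.0817 to 0.186 for rho), and 1.05% of genes did. Taken over the genes correlated with each of the 3 instead, the BH adjusted p of r was 0.0348 for CXCR3, which passed, 0.0542 for CXCL10 and 0.0712 for CXCL11. Without early 1 and late 5, r was 0.621, 0.714 and 0.649 (exact permutation p = 0.118, 0.0534 and 0.0820, n = 8).

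Of 6 tested genes of IFN-γ signalling, 1 was called, and it was higher in late CCH, as were 9.2% of all tested genes. This was IRF1, a transcription factor induced by IFN-γ, which averaged 1038 ± 413 normalized counts over the 5 early tumours and 3179 ± 485 over the 5 late tumours (SD). Its log2 fold change was -1.70, with SE 0.28 and a limma BY adjusted p of 0.0161. The kinase JAK1 (-0.48) passed only BH, at a limma adjusted p of 0.0160. IFNGR1, the ligand-binding receptor chain, went the other way at 0.98 (BY adjusted p 0.0235) but stayed under 2-fold. JAK2 stood at 0.015 and the feedback inhibitor SOCS1 at -1.50, and neither passed BH. The median log2 fold change of the 6 genes was -0.99, beside -0.18 over all tested genes.

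Among 15 other tested IFN-γ-induced genes, 6 were called higher in late CCH and none higher in early CCH, and 11 and 0 passed BH in these directions. Over all tested genes, 9.2% were called and 27.3% passed BH as higher in late CCH. The largest called differences were in GBP5, a guanylate-binding protein (317 ± 184 and 1293 ± 161 normalized counts, SD, n = 5 each; log2 fold change -2.26, limma BY adjusted p 0.0247), and in PDCD1LG2, the PD-1 ligand PD-L2 (240 ± 133 and 848 ± 279 normalized counts; -1.97, BY adjusted p 0.0436). IDO1 had a log2 fold change of -3.24 and passed BH only (0.0129). The median of these genes was -1.17. Of 11 genes induced mainly by type I interferon, none was called, and 2 passed BH. These were BST2, or tetherin (-2.40, limma BH adjusted p 0.0105), and STAT2 (-0.94, 0.0164). The median of that list was -0.68. Without early 1, the median of the type I list was -0.36, the IFN-γ-induced list had 6 called genes and the type I list had none, where 6.44% of all tested genes were called higher in late CCH.

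**Figure D4:**
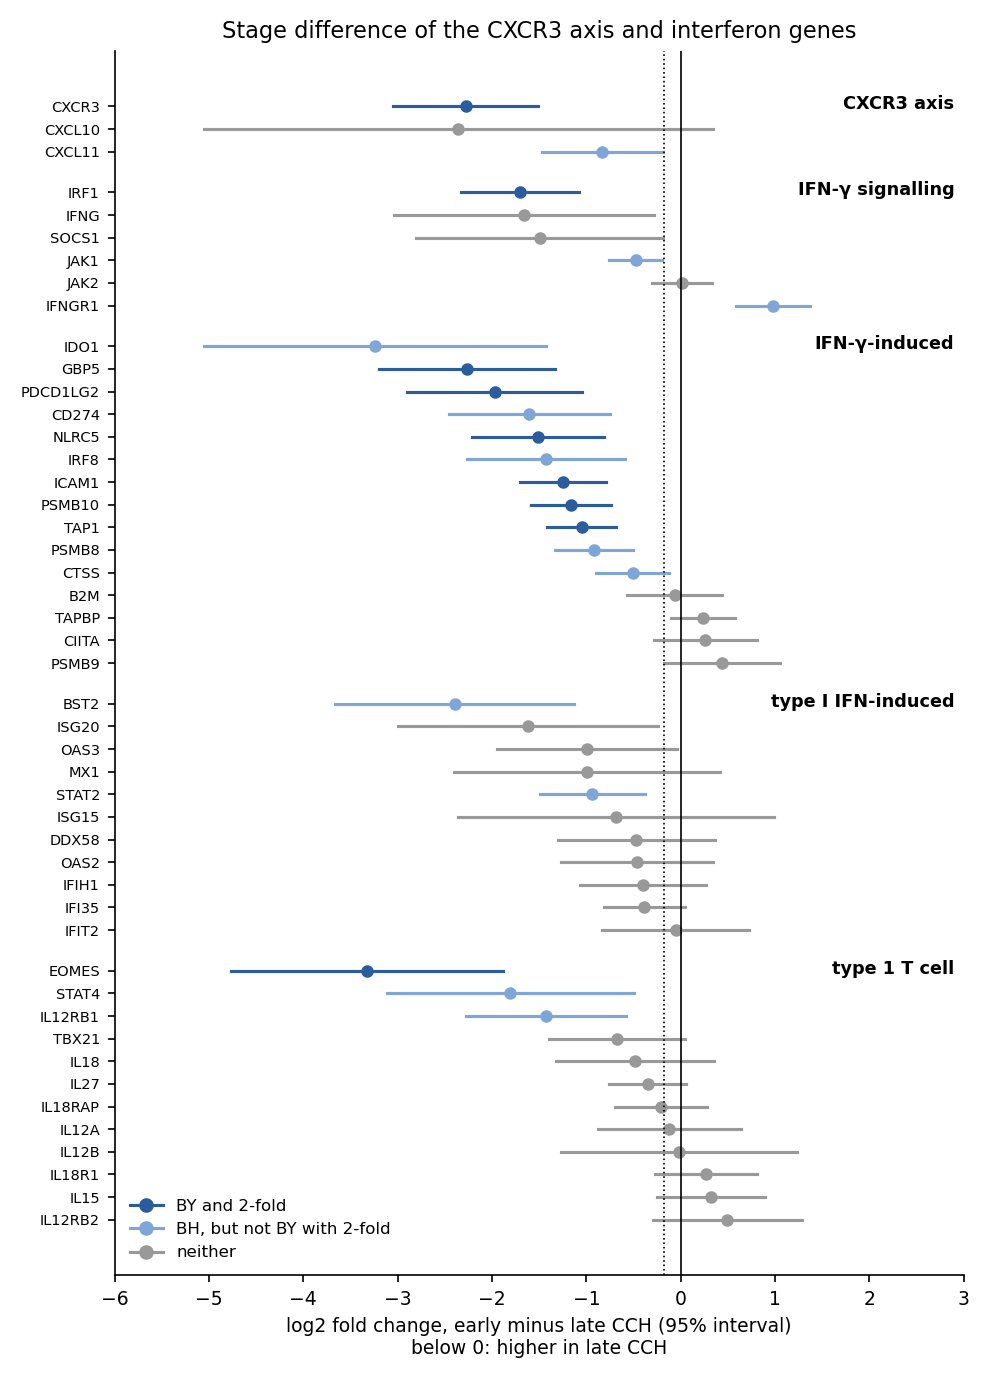
Log2 fold change of CCH early versus late with 95% confidence intervals (horizontal axis, negative is higher in late CCH) for CXCR3, CXCL10, CXCL11 and the listed interferon and T cell genes, coloured by the limma result (dark blue, called; light blue, past BH only or under 2-fold; grey, neither). The dotted line marks the median of all tested genes at -0.18; CXCR3 lies at -2.28 with an interval clear of 0, and the interval of CXCL10 runs from -5.06 to 0.34.

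In the type 1 T cell programme, 12 genes were tested, and 1 was called, a share near the 11.2% of all tested genes called in either direction. EOMES, a T-box factor of cytotoxic T cells and natural killer cells, was at 357 ± 327 normalized counts in early CCH and 2401 ± 571 in late CCH (SD, n = 5 each), a log2 fold change of -3.32 (limma BY adjusted p 0.0297). STAT4 and IL12RB1, which transmit the interleukin-12 signal, passed BH only (-1.81 and -1.43, limma BH adjusted p 0.0362 and 0.0163). TBX21, which encodes T-bet, the factor that drives CXCR3 in T cells, was at -0.67 (BH adjusted p 0.135), with 50.8 to 188 normalized counts in early and 148 to 228 in late CCH. The others that missed BH were IL12RB2 (0.50), IL18R1 (0.26), IL18RAP (-0.21), IL12A (-0.12), IL12B (-0.019), IL18 (-0.49), IL27 (-0.35) and IL15 (0.32). IL12B exceeded background in only 2 samples. The median was -0.28.

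Markers of cell types that could carry the receptor or secrete the ligands moved with stage as well, and their part in the CXCR3 and ligand differences was not tested. All 18 tested T cell genes passed BH as higher in late CCH, and 4 were called, namely CD6, CD5, CD4 and CD247, where 27.3% and 9.2% of all tested genes did so. Their summed level was 836 to 15318 normalized counts in early CCH, with early 1 lowest, and 22568 to 37783 in late CCH. Of 7 natural killer cell genes, KLRK1 and NCR1 were called higher in late CCH (summed level 493 to 1362 against 1423 to 4382), and of 8 B cell genes CD79A was (2283 to 3704 against 1998 to 10028). The B cell count is near the 9.2% of all tested genes. KLRK1 is also found on T cells, NCR1 exceeded background in only 6 of the 10 samples, and 3 natural killer cell genes had values in the other direction that did not pass BH, NCR3 at 0.20, KLRF1 at 0.11 and NCAM1 at 0.25. The median of the natural killer cell list was -0.47. Without early 1, 3 T cell genes and no natural killer or B cell gene were called, beside 6.44% of all tested genes.

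Of 10 macrophage and monocyte genes, CD68 was called higher in late CCH, a share near the 9.2% of all tested genes, but none was without early 1, and the summed level was 3641 to 8820 normalized counts in early and 5336 to 9434 in late CCH. Of 11 Langerhans and dendritic cell genes, FLT3 and FCER1A were called higher in early CCH, as were 1.97% of all tested genes (summed level 2341 to 6060 against 2739 to 4785), while CD83, a marker of mature dendritic cells, and XCR1, a receptor of cross-presenting dendritic cells, passed BH as higher in late CCH (-1.30 and -1.60, limma BH adjusted p 0.0109 and 0.0359). Of 5 fibroblast and stromal genes THY1, which T cells of some species also carry, was called higher in late CCH, and none of 3 endothelial and 2 keratinocyte genes was called, beside 11.2% of all tested genes called in either direction. The summed levels were 4880 to 37581 against 11985 to 32743 for the stromal genes, 1008 to 1595 against 727 to 1590 for the endothelial genes and 219.8 to 5468 against 339 to 3670 for the keratinocyte genes. For macrophage, stromal, endothelial and keratinocyte genes these ranges overlapped between stages.

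Other chemokine genes gave a setting for the receptor and its ligands. Of 11 other lymphocyte chemokine receptors, CXCR4, the receptor of CXCL12, was the one called higher in late CCH, a share near the 9.2% of all tested genes (192 ± 131 and 1018 ± 216 normalized counts, SD, n = 5 each; log2 fold change -2.63, limma BY adjusted p 0.0141). By BH, 5 were higher in late CCH, among them CXCR6 (-2.50), beside 27.3% of all tested genes. CCR6 (1.74) and CX3CR1 (1.49) were higher in early CCH by BH. In either direction, 35.7% of all tested genes passed BH. Of 25 other chemokine ligands, CCL4 (-2.78, BY adjusted p 0.0241) and CXCL16 (-1.15, BY adjusted p 0.0141) were called higher in late CCH, and 10 passed BH in that direction and none in the other, beside 9.2% called and 27.3% past BH over all tested genes. CCL5 averaged 12952 ± 12757 normalized counts over the early and 49790 ± 24312 over the late tumours (SD, n = 5 each; log2 fold change -2.87, limma BH adjusted p 0.0437). The medians were -1.18 for the receptors and -0.82 for the ligands. Of 7 genes for co-inducers such as TNF and the NF-κB subunits, NFKB2 (-1.13) and the inhibitor NFKBIA (-1.30) were called, both higher in late CCH, beside 9.2% of all tested genes, while TNF stood at -0.52 (limma BH adjusted p 0.293).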

How the data were processed

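Total RNA of 10 FFPE tumours was hybridized to the nCounter panel, in which barcoded probes are counted without amplification. The authors normalized the counts in nSolver 4.0 to positive controls and then to housekeeping genes. The deposited values are this normalized signal on a linear scale, called normalized counts, for 800 genes and 14 control probes (6 positive, 8 negative). At least 99.4% of values per sample were whole multiples of 1 step (tolerance 0.0051), which gave the barcode counts used for depth, background and Poisson intervals. The stage comparison used limma 3.58.1 (trended eBayes, R 4.3.3) on log2(normalized count + 1), over 761 genes with a mean of at least 20. Fold changes on this scale understate those of low genes. BY and BH adjustment ran over all tested genes. Single values used exact two-sided permutation over 252 regroupings, and correlations 100000 permutations (scipy 1.17.1). Checked on simulated data with 200 of 761 genes changed, the stage fit recovered 81% of 4-fold changes by BY and 9% of 2-fold changes.

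Stages came from the sample labels. Nothing ties a replicate number to a shared animal. The genes, gene lists and tests were chosen with earlier results of these data known. Genes named from a list were the called ones, or the pair with the largest change where over 4 were called, the remaining IFN-γ signalling and type 1 genes (2 genes of these lists are not reported here), and the 5 most alike by r. Genes named for early 1 and those that passed only BH were chosen after their values were seen. The alternatives were another pseudocount, filter, scaling, trend, floor, covariate or block, and leaving out each sample. No sequences or coordinates are given.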

Additional observations from a re-analysis of the deposited data

Results flagged for a closer look

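CXCL10 in early CCH had 1 sample far from the others. Early 1 was at 7.01 in log2 normalized counts, the nearest early sample was at 13.18, and the gap between them made up 0.844 of the range of the group. CXCL11 in early CCH also had early 1 far below the rest, at 5.44 in log2 normalized counts, with the nearest sample at 6.33 and a gap of 0.748 of the range. In all, 26 groups were checked in this way and 2 passed, and chance alone passes about 5% of groups.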

How the results depend on the processing

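The direction of the stage difference was kept for CXCR3, CXCL10 and CXCL11 under every alternative run. CXCR3 was no longer called with DV200 as a covariate (-2.04, limma BY adjusted p 0.389) or with a replicate block (-2.28, 0.106), and the panel count of called genes went from 85 to 0 and 1, respectively. Same-numbered samples did not deviate together (r -0.20 to 0.16 over the 5 numbers). These values alone cannot exclude a pairing, but no label gives one. With extraction batch as a random block (within-batch correlation -0.138) 118 genes were called. As no batch held both stages, that fit cannot take batch differences out of the stage difference. Of the called genes, 70 of 85 were higher in late CCH, beside 35 of 77 with geometric mean scaling and 42 of 72 with TMM scaling.

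Leaving out 1 sample at a time gave -2.48 to -2.08 for CXCR3, which stayed called, -2.83 to -0.998 for CXCL10, -0.96 to -0.62 for CXCL11 and 39 to 98 called genes. The ratio to CD3E ranged over 0.11 to 1.41 for CXCR3, 0.088 to 1.25 for CXCL10 and 1.62 to 2.96 for CXCL11 (exact permutation p 0.00794 to 0.0952), and with a replicate block CXCL11 gave 2.35 (exact sign permutation p 0.125). The correlation with CD3E ranged over 0.829 to 0.905 for CXCR3, 0.477 to 0.955 for CXCL10 and 0.507 to 0.836 for CXCL11.

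The CXCL10 slope on CD3E was 0.95 with pseudocount 10, 0.91 with geometric mean scaling, 0.92 with TMM scaling and 0.95 with a background floor and no longer passed the threshold (BH adjusted p 0.0587, 0.0893, 0.0683 and 0.0915). The correlation of CXCL10 with CD3E missed the threshold at 0.798, 0.816 and 0.835 under geometric mean, TMM and floor, and that of CXCL11 at 0.557 and 0.696 under the first and second of these. Without early 1, the slopes of CXCL10 and CXCL11 on CD3E turned to -0.15 and -0.027 and the stage difference of CXCL10 with CD3E in the fit to -1.33. Slopes without 1 sample spanned -0.15 to 1.11 for CXCL10, -0.027 to 0.18 for CXCL11 and 0.21 to 0.41 for CXCR3. With CD3E in the fit, stage differences spanned -1.76 to -1.21 for CXCR3, -1.33 to 1.49 for CXCL10 and -0.69 to -0.16 for CXCL11. The causes were not tested.

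The planned count-model test was not run, because the control probes of the same columns are not on the scale of the genes, and CXCL9 has no alternatives. Depth limits CXCR3 and CXCL11 in early CCH, which rest on 29 to 88 and 40 to 54 barcode counts. Each sample is 1 dog, and 5 per stage limit the precision.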
